A study of Mus musculus with 6 samples.

Results

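Nr4a1, Nr4a2 and Nr4a3, Egr1, Egr2 and Egr3, and Ier2, Ier3 and Ier5 are 9 immediate early genes, which are described here in regulatory T cells (Tregs) sorted from mouse tumors. They were chosen by gene symbol, 9 of 23420 genes in the counts table, with earlier results of the comparison of anti-PD-1 with untreated Tregs known. Their differences between the treatments are therefore given as a description, without a test of their own. All mice were BALB/c animals with a GFP reporter of Foxp3, carried tumors grown from 10000 injected T11 cells (a claudin-low model of triple-negative breast cancer) and were sampled once the tumor reached 150 mm2. The treated mice received J43, an antibody against PD-1, as 200 µg into the peritoneum 2 times per week, and the other mice received no treatment. GFP-positive cells, which are Foxp3-expressing cells, were sorted to above 90% purity and gave 3 anti-PD-1 libraries (4, 5 and 6) and 3 untreated libraries (1, 2 and 3). The labels give no age or sex, and are silent on whether each library is its own animal, so every SD and p-value below measures the spread between libraries, which may be technical.

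Immediate early genes are transcribed within minutes of a stimulus from factors already present in the cell. In T cells, signals from the antigen receptor reach them through calcium, MAP kinases and the factors SRF, CREB, MEF2 and NFAT. The NR4A genes encode orphan nuclear receptors that act independently of a hormone, are used as reporters of antigen receptor signalling and are needed for Treg development in mice. The EGR genes encode zinc finger transcription factors, of which EGR2 and EGR3 are known for restraining T cell activation. The IER genes share a name and not a single protein family: IER2 and IER5 are related nuclear proteins, IER5 is known to act on the heat shock factor HSF1, and IER3 is a stress-induced regulator of cell survival. The same genes are known to be induced by enzymatic tissue dissociation, which every one of these libraries went through.

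Promoter sequence is shown for the 3 NR4A genes, whose windows share a motif, and for Egr2, whose window holds the binding site of SRF. Each window runs from 250 bases before to 50 bases after a start site in RefSeq (GRCm38.p6), 300 bases in all and 5′ to 3′ on the gene's strand, and 6 of the 9 genes had such a window in the table. Capitals mark the CArG box bound by SRF and TGACG, the core of the cAMP response element (CRE), on either strand.
Nr4a1 (chr15:101266596-101266895, plus strand): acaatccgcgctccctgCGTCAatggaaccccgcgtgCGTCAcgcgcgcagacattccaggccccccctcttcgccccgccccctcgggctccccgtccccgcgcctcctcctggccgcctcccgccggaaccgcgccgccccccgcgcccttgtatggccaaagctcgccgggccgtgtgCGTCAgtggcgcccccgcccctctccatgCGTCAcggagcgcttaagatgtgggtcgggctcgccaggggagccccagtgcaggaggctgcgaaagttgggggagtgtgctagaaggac
Nr4a2 (chr2:57123954-57124253, minus strand): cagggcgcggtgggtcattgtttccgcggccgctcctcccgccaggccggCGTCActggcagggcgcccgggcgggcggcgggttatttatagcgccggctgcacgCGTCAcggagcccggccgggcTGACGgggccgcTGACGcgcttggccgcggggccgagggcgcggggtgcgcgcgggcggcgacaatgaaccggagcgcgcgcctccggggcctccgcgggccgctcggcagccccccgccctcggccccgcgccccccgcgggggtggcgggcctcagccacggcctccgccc
Nr4a3 (chr4:48045055-48045354, plus strand): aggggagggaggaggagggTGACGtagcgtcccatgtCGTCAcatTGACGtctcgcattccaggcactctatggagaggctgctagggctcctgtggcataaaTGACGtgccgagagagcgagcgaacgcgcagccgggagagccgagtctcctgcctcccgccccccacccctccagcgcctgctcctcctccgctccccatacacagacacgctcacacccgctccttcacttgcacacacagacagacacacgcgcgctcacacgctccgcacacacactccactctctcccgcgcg
Egr2 (chr10:67537619-67537918, plus strand): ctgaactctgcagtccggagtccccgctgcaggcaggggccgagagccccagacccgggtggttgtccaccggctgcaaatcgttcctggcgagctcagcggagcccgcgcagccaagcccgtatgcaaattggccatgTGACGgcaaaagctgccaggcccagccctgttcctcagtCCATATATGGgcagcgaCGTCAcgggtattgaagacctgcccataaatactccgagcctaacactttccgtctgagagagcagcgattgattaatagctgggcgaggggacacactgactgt
Each of the 3 NR4A windows held 4 TGACG motifs, and the Egr2 window held 2 of them and 1 CArG box, CCATATATGG. Counted from the start site to the first base of the match, the motifs lay at -233, -213, -69 and -40 in Nr4a1, at -200, -144, -123 and -111 in Nr4a2, and at -231, -213, -205 and -147 in Nr4a3. The CArG box of Egr2 lay at -72, between TGACG motifs at -111 and -55. Among all 32817 promoter windows of this length, 20.8% held at least 1 TGACG and 1.63% a CArG box. The windows of Ier3 (chr17:35821463-35821762, plus strand) and Ier5 (chr1:155099587-155099886, minus strand) held neither. The full CRE TGACGTCA, which contains TGACG, the NR4A site AAAGGTCA, the EGR site GCGTGGGCG and the AP-1 site TGANTCA, also read on both strands, were found in none of the 6 windows, while 1.79%, 1.51%, 0.612% and 7.81% of all windows held them. The MEF2 site was found in the Nr4a2 window and in 3.19% of all windows. The GC content was 72.3%, 81.7% and 64.7% for Nr4a1, Nr4a2 and Nr4a3, 60.0% for Egr2, 54.0% for Ier3 and 59.0% for Ier5. Over all windows it was 53.8%, so the shares of all windows that held a motif are not matched for GC content. For Nr4a3 the start site lies 5943 bases upstream of the gene model on which the reads were counted. Egr2 has 5 windows in the table, and the one at the start of its counted model is printed. Egr1, Egr3 and Ier2 are not printed. Reads of Ier2 were counted on 1 exon (mm10 chr8:84661331-84662852, minus strand), and so were those of Ier5 (chr1:155096367-155099636, minus strand), and Egr3 on chr14:70077445-70080157 (plus strand).

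On the TPM scale, in which counts are divided by gene length before they are scaled to the library, Nr4a1 was the highest of the 9 genes, at 991 ± 90.4 TPM in anti-PD-1 Tregs and 880 ± 221 TPM in untreated Tregs (SD, n = 3 each). That is place 95 among all 23420 genes in anti-PD-1 Tregs and place 103 in untreated Tregs. Nr4a3 followed at 609 ± 136 TPM in anti-PD-1 and 632 ± 150 TPM in untreated Tregs, and lay below Nr4a1 in each of the 6 libraries. In anti-PD-1 Tregs the third place was held by Ier2 (265 ± 61.0 TPM), then Nr4a2 (153 ± 18.1), Ier5 (140 ± 12.8) and Egr1 (71.2 ± 5.54 TPM). In untreated Tregs the third place was held by Nr4a2 (173 ± 35.5 TPM), then Ier2 (148 ± 7.72), Ier5 (144 ± 25.1) and Egr1 (71.3 ± 17.4 TPM). The last 3 places were held in both groups by Egr2, Egr3 and Ier3, with means between 5.26 and 9.24 TPM. Among neighbours in the anti-PD-1 order, Nr4a2 with Ier5, Egr2 with Egr3 and Egr3 with Ier3 overlapped in their library values and the other 5 pairs did not. In the untreated order, Nr4a1 with Nr4a3, Nr4a2 with Ier2, Ier2 with Ier5, Egr2 with Egr3 and Egr3 with Ier3 overlapped. Of further relatives, Egr4 had 1 read in all 6 libraries together, and Ier5l stood at 20.3 ± 5.74 TPM in anti-PD-1 and 16.0 ± 10.6 TPM in untreated Tregs.

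**Figure D1:**
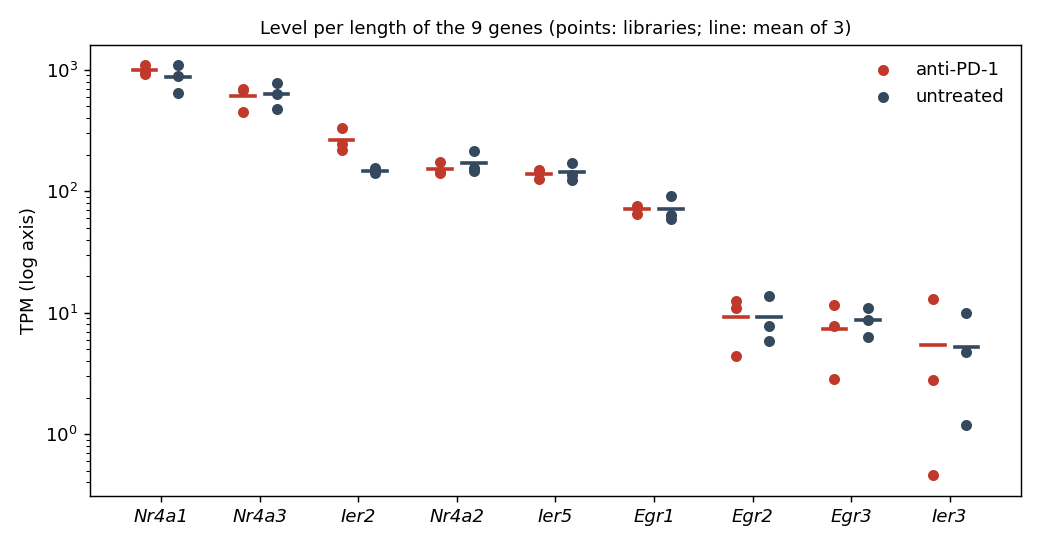
Level per length (TPM, log axis) of the 9 genes in anti-PD-1 (red) and untreated (dark) Tregs; each point is a library and each line the mean of 3 libraries. Nr4a1 and Nr4a3 stand highest, and Egr2, Egr3 and Ier3 have means below 10 TPM in both groups.

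Across the treatments, Ier2 differed most in log2 fold change among the 9 genes, while the NR4A receptors, Egr1 and Ier5 overlapped between the groups. All 9 genes passed the filter on low counts, and edgeR's quasi-likelihood test over 10352 genes called none of the 9 at an adjusted p under 0.05, beside 0.029% of all tested genes. DESeq2 called 1 of them, Ier2, beside 0.222% of all tested genes. The log2 fold change was above 0 in 7 of the 9, beside 50.1% of all tested genes, with a median of 0.07 over the 9 and of 0.0016 over all tested genes. The groups did not overlap in 1 of the 9 (Ier2, higher), beside 7.18% of all tested genes that lay higher without overlap and 13.6% in either direction. Since the genes were chosen with this comparison known, nothing is read from these shares. In bulk RNA, a change in the share of cells that express a gene and a change in the RNA per cell cannot be told apart.

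**Figure D2:**
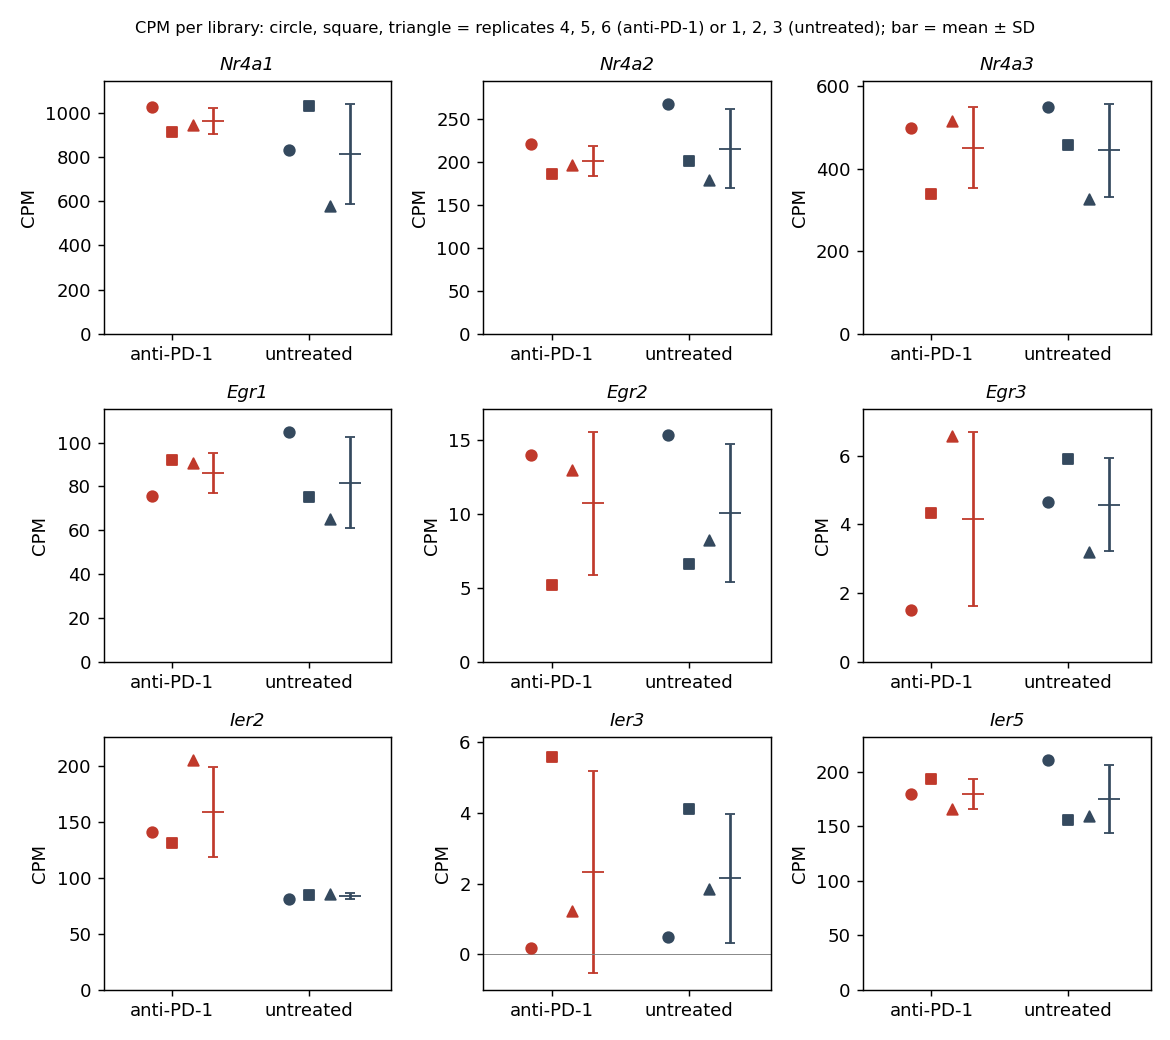
CPM (y axis) of each of the 9 genes per library, with anti-PD-1 replicates 4, 5 and 6 at the left and untreated replicates 1, 2 and 3 at the right (circle, square and triangle in that order) and the mean ± SD beside them. Ier2 lies between 132 and 205 CPM in anti-PD-1 Tregs and between 81.0 and 86.0 CPM in untreated Tregs, and the other 8 genes overlap.

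Levels by library are given in CPM, counts scaled to library size by TMM and not by gene length. TPM is not scaled by TMM, and the fold changes rest on the TMM scale. For Nr4a3, Egr1 and Ier5 the anti-PD-1 mean lay below the untreated mean in TPM and above it in CPM. Nr4a1, the receptor also called Nur77, stood at 1028, 914 and 947 CPM in the anti-PD-1 libraries 4, 5 and 6, against 833, 1031 and 579 CPM in untreated libraries 1, 2 and 3. Its highest and its lowest value both belonged to untreated libraries. Its log2 fold change in edgeR was 0.24 ± 0.17 (SE), and its SD was 58.6 CPM in anti-PD-1 and 227 CPM in untreated Tregs. Nr4a2, or Nurr1, stood at 220.5, 186 and 196 CPM in the anti-PD-1 libraries 4, 5 and 6, against 267, 200.5 and 178 CPM in untreated libraries 1, 2 and 3. The untreated values again enclosed those of the treated group, with a log2 fold change of -0.10 ± 0.17. Nr4a3, or Nor1, stood at 498, 338 and 516 CPM in the anti-PD-1 libraries 4, 5 and 6, against 549, 457 and 325 CPM in untreated libraries 1, 2 and 3. The untreated values enclosed those of the treated group here too, and the log2 fold change was 0.02 ± 0.18. Summed over the 3 receptors, the level was 1754 ± 222 TPM in anti-PD-1 and 1684 ± 352 TPM in untreated Tregs. Nr4a1 made up between 53.5% and 61.1% of that sum in anti-PD-1 libraries and between 47.5% and 57.9% in untreated libraries.

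Egr1, the broadly induced member of its family, stood at 75.6, 91.9 and 90.9 CPM in the anti-PD-1 libraries 4, 5 and 6, against 105, 75.2 and 64.9 CPM in untreated libraries 1, 2 and 3. The untreated values enclosed those of the treated group, with a log2 fold change of 0.07 ± 0.21. Egr2 and Egr3 rested on few reads. Egr2 had 74, 25 and 63 counts in anti-PD-1 libraries 4, 5 and 6, against 96, 37 and 49 in untreated libraries 1, 2 and 3, a log2 fold change of 0.08 ± 0.48. Its highest library was untreated and its lowest was treated. Egr3 had 8, 21 and 32 counts in anti-PD-1 libraries 4, 5 and 6, against 29, 33 and 19 in untreated libraries 1, 2 and 3, a log2 fold change of -0.16 ± 0.67. At this depth no difference was detectable for Egr2 and Egr3. Egr1 made up at least 76.6% of the summed EGR level per length in every anti-PD-1 library and at least 79.3% in every untreated library.

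Ier2, which encodes a nuclear protein induced by growth factors, stood at 141, 132 and 205 CPM in the anti-PD-1 libraries 4, 5 and 6, against 81.0, 84.9 and 86.0 CPM in untreated libraries 1, 2 and 3. Every treated library lay above every untreated one, and anti-PD-1 library 6 lay highest. The means were 159 ± 40.3 CPM in anti-PD-1 and 84.0 ± 2.62 CPM in untreated Tregs (SD, n = 3 each), a log2 fold change of 0.92 ± 0.19 (SE). Without anti-PD-1 library 6 the log2 fold change was 0.70. Besides DESeq2, edgeR called Ier2 without the filter on low counts, beside 0.352% of all genes tested there, and without untreated library 1, beside 0.178%. Ier5, by contrast, stood at 180, 194 and 166 CPM in the anti-PD-1 libraries 4, 5 and 6, against 211, 156 and 159 CPM in untreated libraries 1, 2 and 3, a log2 fold change of 0.03 ± 0.17. The treated values lay within the untreated range. Ier2 made up between 57.4% and 72.3% of the summed IER level per length in anti-PD-1 libraries and between 45.0% and 52.8% in untreated libraries. Ier3 had 1, 27 and 6 counts in anti-PD-1 libraries 4, 5 and 6, against 3, 23 and 11 in untreated libraries 1, 2 and 3. These counts ranged widely in both groups, and the log2 fold change of 0.12 ± 0.97 was -1.56 without anti-PD-1 library 5.

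**Figure D3:**
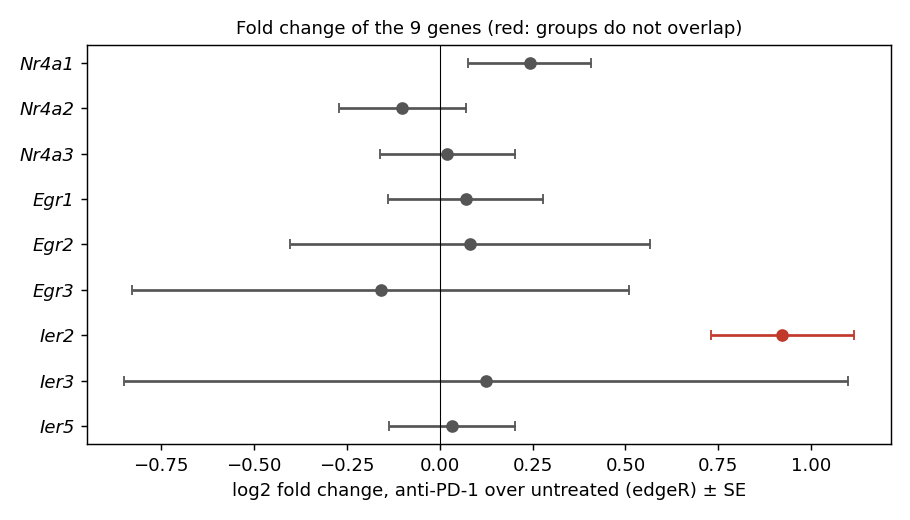
Log2 fold change of anti-PD-1 over untreated Tregs (x axis, edgeR) for the 9 genes, with bars of 1 SE; red marks the gene whose groups do not overlap. Ier2 stands at 0.92, the other 8 lie between -0.16 and 0.24, and Egr2, Egr3 and Ier3 have the widest bars.

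Within a group, libraries differed from each other in ways that the treatment comparison does not use. Each library was set against the mean of its own group on the log2 CPM scale. In untreated library 1, 7 of the 9 genes lay above the group mean, all but Ier2 and Ier3, with a median deviation of 0.28. In untreated library 3, 2 of the 9 lay above it, again Ier2 and Ier3, with a median deviation of -0.25. Nr4a1, Nr4a2, Nr4a3, Egr1 and Egr3 were lowest among untreated libraries in library 3. The anti-PD-1 libraries 4, 5 and 6 had 5, 4 and 5 of the 9 above their group mean, with median deviations of 0.01, -0.07 and 0.08. Over all tested genes, between 50.1% and 54.0% lay above the group mean in a library. Untreated library 1 also stood apart from all others over the whole transcriptome, at 2.40 on the first axis of a multidimensional scaling, where the others lay between -0.66 and -0.39. Leaving out untreated library 3 gave Nr4a1 a log2 fold change of 0.04, and leaving out untreated library 2 gave 0.45.

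**Figure D4:**
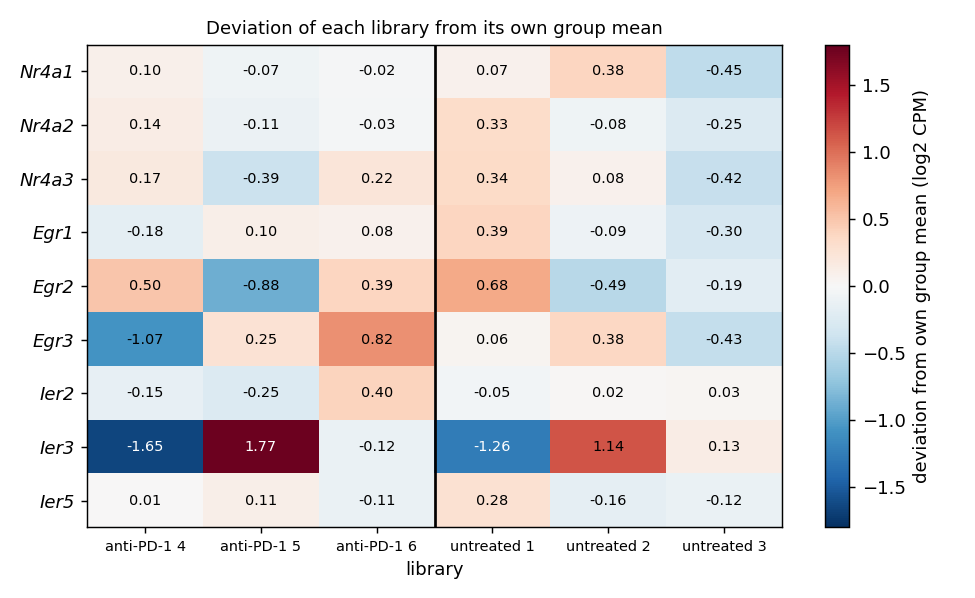
Deviation of each library (columns, anti-PD-1 left of the line) from the mean of its own group, in log2 CPM, for the 9 genes (rows); red is above and blue below the mean. Untreated library 1 has 7 genes above its group mean and untreated library 3 has 2, while Ier3 spans from -1.65 to 1.77 within the anti-PD-1 group.

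Likeness of pattern was measured as the root mean square difference (RMS, log2) between the profiles of 2 genes over the 6 libraries after taking off each gene's mean. Nr4a2 and Ier5 were the nearest pair among the 9 (RMS 0.142), Egr1 was nearest to Ier5 (0.145) and Nr4a3 to Nr4a2 (0.189). Nr4a1 was nearest to Nr4a3 (0.266) and Egr2 also to Nr4a3 (0.381). Ier2 was nearest to Nr4a1 (0.450), Egr3 to Egr1 (0.566) and Ier3 to Egr3 (1.01). Among 7200 other tested genes with a mean of at least 10 CPM, the nearest to Egr1 was Maff (RMS 0.0468), which encodes a small MAF transcription factor and is itself an early response gene. The nearest to Egr2 was Erf (0.136), a repressor of the ETS family that MAP kinase signalling controls. The nearest others were Hlcs for Nr4a1 (0.0875), Tmem123 for Nr4a2 (0.0232), Ints7 for Nr4a3 (0.0865), Gatsl2 for Egr3 (0.172), Rab3ip for Ier2 (0.121), Foxo4 for Ier3 (0.619) and Cdk11b for Ier5 (0.0377). Tmem123 and Cdk11b thus lay nearer to their members than Maff and Erf did to theirs. All profiles share the same 6 libraries and their depth, and a flat gene is near to many others, so these are descriptions. Shared control of any pair was not tested.

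Genes that respond early like the 9, but belong to none of the 3 groups, included 2 of the 3 calls of edgeR's test over all genes, the other being Klf2. Jun, a subunit of AP-1, rose to 266 ± 37.2 CPM in anti-PD-1 Tregs, against 123 ± 4.15 CPM in untreated Tregs, a log2 fold change of 1.11 ± 0.16 (SE, edgeR adjusted p = 0.0034). Rhob, a small GTPase, rose to 86.0 ± 25.0 CPM in anti-PD-1 Tregs, against 27.3 ± 7.56 CPM in untreated Tregs, at 1.65 ± 0.26 (edgeR adjusted p = 0.00706). Of 39 tested genes of this list, 28 lay above 0 and 11 below, beside 50.1% of all tested genes above 0, with a median of 0.13. By edgeR, 2 were called higher and none lower, beside 0.029% of all tested genes called. The list was chosen with earlier results of these data known, so nothing is read from its shares. At an unadjusted p under 0.05 stood 10 higher and 2 lower members, beside 8.31% of all tested genes. Fos, the partner of Jun, had 199 ± 38.6 CPM in anti-PD-1 and 105 ± 6.44 CPM in untreated Tregs, and was not called (edgeR adjusted p = 0.0658). It was called by DESeq2 (adjusted p = 0.00174) and by edgeR with upper quartile scaling (0.0369), with library size alone (0.0378), without a filter (0.0017) and without untreated library 1 (0.0202), and in the other 9 alternatives its adjusted p ran up to 0.419 (without anti-PD-1 library 5). DESeq2 called 3 genes of this list, beside 0.222% of all tested genes. The call of Jun was lost when anti-PD-1 library 5 was left out (edgeR adjusted p = 0.0539), and that of Rhob when anti-PD-1 library 5 (0.0539), anti-PD-1 library 6 (0.123) or untreated library 2 (0.0571) was left out. The adjusted p over all alternatives ran from 2.65e-07 to 0.0539 for Jun, and from 3.76e-07 to 0.123 for Rhob, DESeq2 and limma-voom included.

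Regulators and cofactors upstream of the 9 were represented by 25 tested genes, of which 16 lay above 0 and 9 below, beside 50.1% of all tested genes above 0, with a median of 0.15 and no call by edgeR. At an unadjusted p under 0.05 stood 2 with higher and 1 with lower values, 3 of 25 beside 8.31% of all tested genes. Crem, a CREB family factor with activating and repressing forms, had 686 ± 47.0 CPM in anti-PD-1 and 944 ± 239 CPM in untreated Tregs, with overlap (log2 fold change -0.46 ± 0.16, edgeR adjusted p = 0.46). Mkl1, the actin-controlled partner of SRF, had 101 ± 7.31 CPM in anti-PD-1 and 70.9 ± 13.4 CPM in untreated Tregs, without overlap (0.52 ± 0.20, edgeR adjusted p = 0.516). Rxrb encodes a retinoid X receptor, a class that pairs with NR4A1 and NR4A2. Its level was 18.3 ± 4.32 CPM in anti-PD-1 and 7.84 ± 3.59 CPM in untreated Tregs, without overlap (1.25 ± 0.44, edgeR adjusted p = 0.46). In 4 of the 25 the groups did not overlap, all 4 higher, beside 13.6% of all tested genes in either direction. This list was likewise chosen with earlier results of these data known, so nothing is read from its shares.

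Genes tied to NR4A factors in Tregs and exhausted T cells lay below 0 in 13 of 19 tested and above 0 in 6, beside 50.1% of all tested genes above 0, with a median of -0.28 beside 0.0016 over all tested genes. None was called by edgeR, and 6 lower and no higher members had an unadjusted p under 0.05, beside 8.31% of all tested genes in either direction. The costimulatory receptor gene Tnfrsf9 had 431 ± 54.8 CPM in anti-PD-1 and 669 ± 200 CPM in untreated Tregs (edgeR adjusted p = 0.311), with every treated library below every untreated one. The co-inhibitory receptor Ctla4 had 1270 ± 69.2 CPM in anti-PD-1 and 1688 ± 178 CPM in untreated Tregs (edgeR adjusted p = 0.449), also without overlap. The ectonucleotidase Entpd1 had 122 ± 9.57 CPM in anti-PD-1 and 166 ± 26.1 CPM in untreated Tregs (edgeR adjusted p = 0.534), again without overlap. Groups did not overlap in 6 of the 19, of which 2, Foxp3 and Runx1, lay higher, beside 13.6% of all tested genes in either direction. This list too was chosen with earlier results of these data known, so nothing is read from its shares. In the list of genes tied to EGR2 and EGR3 in anergic T cells, 10 of 20 tested lay above 0 and 10 below, with a median of -0.02 and no call by edgeR. An unadjusted p under 0.05 was found for 1 higher and 2 lower members, 3 of 20 beside 8.31% of all tested genes. They were Socs3, an inhibitor of cytokine signalling (log2 fold change 0.96 ± 0.23, edgeR adjusted p = 0.161), Tnfrsf9, which both lists hold, and the phosphatase gene Ptpn6 (-0.60 ± 0.23, edgeR adjusted p = 0.496). In 5 of the 20, these 3 among them, the groups did not overlap, beside 13.6% of all tested genes in either direction.

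Heat shock genes, which IER5 and HSF1 act on and which also respond to tissue dissociation, were above 0 in 13 of 16 tested members, beside 50.1% of all tested genes, with a median of 0.26 and no call by edgeR. At an unadjusted p under 0.05 stood 6 with higher and 1 with lower values, beside 8.31% of all tested genes in either direction. The cochaperone Dnajb1 had 189 ± 32.0 CPM in anti-PD-1 and 125 ± 20.5 CPM in untreated Tregs (log2 fold change 0.59 ± 0.18, edgeR adjusted p = 0.419). Hspa1a had a log2 fold change of 1.39 ± 0.30 (edgeR adjusted p = 0.287), and its reads cannot be cleanly parted from those of its near-identical neighbour Hspa1b. DESeq2 called Hspa1a (adjusted p = 0.000261). So did edgeR without a filter (3.84e-12), without anti-PD-1 library 6 (0.000262) and without untreated library 3 (0.0262). In the other alternatives the adjusted p of Hspa1a ran up to 0.668 (without untreated library 1). Summed over the 16 genes, the level was 7353 to 8492 CPM in anti-PD-1 libraries and 5971 to 7428 CPM in untreated libraries. Of the 16, the anti-PD-1 libraries 4, 5 and 6 had 10, 11 and 7 above their group mean, where 5, 4 and 5 of the 9 early genes lay above it. Untreated libraries 1, 2 and 3 had 12, 4 and 7 of the 16 above theirs, where 7, 5 and 2 of the 9 did. Among untreated libraries, library 1 had the most above the mean in both sets, while libraries 2 and 3 came in opposite order. Among anti-PD-1 libraries, the counts of the 9 were tied between libraries 4 and 6. Of the 39 other early response genes, untreated libraries 1, 2 and 3 had 28, 19 and 11 above their group mean. Anti-PD-1 libraries 4, 5 and 6 had 18, 22 and 22 of the 39 above theirs. DESeq2 called 2 heat shock genes, beside 0.222% of all tested genes, and none of the upstream, NR4A-linked or EGR-linked lists. The part of tissue handling in the levels of the 9 genes was not tested.

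**Figure D5:**
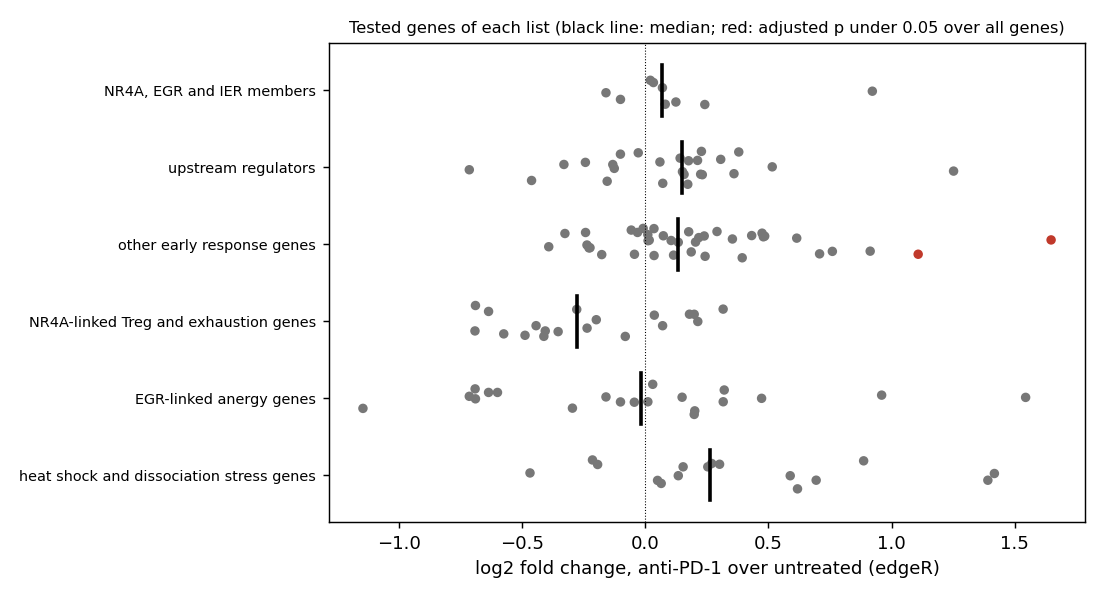
Log2 fold change of anti-PD-1 over untreated Tregs (x axis, edgeR) for the tested genes of each list (rows; points, with vertical scatter for display only), with the median as a black line. Red marks Jun and Rhob, the 2 genes of these lists with an adjusted p under 0.05 over all genes, and the medians run from -0.28 for NR4A-linked genes to 0.26 for heat shock genes.

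Markers of Tregs were high in every library, between 5358 and 6089 CPM summed over 6 genes in the treated libraries and between 6297 and 7069 CPM in untreated libraries. Their sum was thus lower in each anti-PD-1 library than in any untreated one. Of its genes, Ctla4, Ikzf2 and Il2ra had lower means in anti-PD-1 Tregs. Cd4 and Cd3e, also in the set, are not given singly here. The lower sum therefore does not describe every Treg marker. Ikzf2 had 1821 ± 124 CPM in anti-PD-1 and 2144 ± 190 CPM in untreated Tregs, without overlap. Il2ra had 1088 ± 154 CPM in anti-PD-1 and 1389 ± 308 CPM in untreated Tregs, with overlap. Foxp3 itself went the other way, with 522 ± 53.5 CPM in anti-PD-1 and 450 ± 11.6 CPM in untreated Tregs. None of these genes was called by edgeR. Summed markers of other cells were low. The tumor and fibroblast markers (7 genes, Dcn at 0) ran from 37.7 to 53.8 CPM in anti-PD-1 and from 27.5 to 53.5 CPM in untreated libraries, and both CD8 genes together from 18.7 to 51.1 CPM in anti-PD-1 and from 11.0 to 31.1 CPM in untreated libraries. Macrophage and monocyte markers (7 genes, C1qa at 0) reached at most 12.2 CPM in anti-PD-1 and 12.1 CPM in untreated libraries, and dendritic, B, NK and neutrophil markers at most 15.7 CPM in anti-PD-1 and 16.2 CPM in untreated libraries, with S100a9, Csf3r, Retnlg and Clec9a at 0. The part of these markers in the values of the 9 genes was not tested. Total counts ran from 4766533 to 5219249 in anti-PD-1 and from 5470816 to 6686774 in untreated libraries, so each treated library was shallower than each untreated one.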

How the data were processed

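The authors deposited unscaled counts, in which a read pair is 1 fragment, assigned by strand to UCSC mm10 gene models with featureCounts 1.5.2, per the file headers. How duplicates were handled is not stated there. The members and lists were chosen with earlier results of these data known. Counts of 6 libraries entered edgeR 4.0.16 in R 4.3.3 (filterByExpr at a count of 10 and a total of 15, TMM scaling, robust quasi-likelihood fit, treatment as the only term, two-sided, Benjamini-Hochberg adjustment over 10352 genes at 0.05). The steps were also run on counts simulated with the dispersions that edgeR estimated here. That run checks the code and cannot show how well the model suits these data. CPM was scaled by TMM. TPM used the deposited exon lengths, so it assumes even coverage of a gene model. Deviations and profiles used log2 CPM with a prior count of 2. Chi-square per degree of freedom over genes was 9.98 to 32.4 between any 2 libraries, so none was a copy of another. All 9 genes, further relatives, the called genes and up to 3 genes of smallest p per list are named, except 1 gene that is not reported here. Alternatives were DESeq2 1.42.0, limma-voom (limma 3.58.1), other scalings and filters, leaving out each library and, added after seeing the data, edgeR's earlier quasi-likelihood method. In the table, 1 unnamed column with 6 values was not used. No gene model of the 9 shares exon bases with another row.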

Additional observations from a re-analysis of the deposited data

How the results depend on the processing

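Ier2 and Nr4a1 had a log2 fold change above 0 in each of 14 alternatives, from 0.70 to 1.04 and from 0.04 to 0.45. The signs of the other 7 turned in at least 1 alternative, Egr1 running from -0.07 to 0.29, Nr4a2 from -0.22 to 0.09 and Ier5 from -0.04 to 0.19. The median over the 9 ran from -0.05 to 0.20, both without a library. The count of members called was 0, and 1 (Ier2) with DESeq2, without a filter and without untreated library 1. Over all genes, edgeR called 3, against 23 with DESeq2, 5 with limma-voom or upper quartile scaling, 7 with library size alone and 52 without a filter. Leaving out 1 library gave 1 (without anti-PD-1 5) to 19 (without untreated 1) for all genes, 0 to 1 for the members, 0 to 3 for other early response genes and 0 to 2 for heat shock genes. Heat shock genes called were 2 with DESeq2, 1 with limma-voom, upper quartile scaling or library size alone and 3 without a filter. Without a filter, 1 NR4A-linked gene (Tnfrsf9) and 2 EGR-linked genes (Socs3 and again Tnfrsf9, which both lists hold) were also called. The summed TPM of the 9 was 2829 in anti-PD-1 and 2595 in untreated Tregs once the 10 genes of highest count were left out, against 2252 in anti-PD-1 and 2071 in untreated Tregs with them, which leaves their order as it was, since every gene of a library is scaled alike. Among those 10, the ribosomal RNA precursor Rn45s held 22.4% of the counts, and Malat1, the next, 2.24%. No paired analysis was possible because the groups share no replicate number. With 3 libraries per group, low counts limit Egr2, Egr3 and Ier3 most.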
